A study of Mus musculus with 6 samples.

Results

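The genes described here make, break down or sense prostanoids and leukotrienes, the signalling lipids derived from arachidonic acid. The 10 members are Ptgs1, Ptgs2, Ptges, Hpgds, Hpgd, Alox5, Alox5ap, Ltc4s, Ptger2 and Ptger4, chosen by gene symbol from the 26110 genes of the deposited RNA-seq table. Bulk RNA-seq had been run on 3 libraries of MHCIIhi CX3CR1- cells and 3 libraries of MHCIIhi CX3CR1+ cells, sorted from the muscularis externa (ME), the outer muscle layer of the small bowel wall. All mice were untreated and carried the CX3CR1+/GFP genotype, a knock-in that puts green fluorescent protein in place of a single Cx3cr1 allele, on a C57BL/6 background. The methods give female mice for the study and no age. The ME of several mice was pooled per group, and separate pools per library are not stated, so the p-values measure the spread between libraries, which may be partly technical. The study asked how the transcriptomes of both populations of ME macrophages differ, and the comparison here asks the same of the eicosanoid genes. In the labels these cells are dendritic cells, in the study's text macrophages.

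Arachidonic acid is released from membrane phospholipids and then enters either of the main branches of eicosanoid synthesis. The cyclooxygenases COX1 (Ptgs1) and COX2 (Ptgs2) form prostaglandin H, which terminal synthases turn into prostaglandin D (Hpgds), prostaglandin E (Ptges) or other prostanoids. Released prostaglandins are taken up again and inactivated by the dehydrogenase encoded by Hpgd. In the other branch, 5-lipoxygenase (Alox5) and its activating protein FLAP (Alox5ap) form leukotriene A, which leukotriene C synthase (Ltc4s) conjugates with glutathione. Prostaglandin E acts on smooth muscle, neurons and leukocytes, in macrophages and dendritic cells chiefly through the cAMP-raising receptors EP2 (Ptger2) and EP4 (Ptger4). In the bowel, COX2 of ME macrophages is known for its part in the impaired motility that follows surgery.

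Approximate depth was 5346383 to 17616786 reads per library, and the depths of the groups overlapped. The values are normalized between libraries and are not per length. A value of 3 reads, the limit under which a gene was treated as not measurable, lay between 1.39 and 5.36. Every member lay above it in every library. Mitochondrial genes took 47.5 to 54.9% of the normalized total in CX3CR1- and 18.1 to 21.2% in CX3CR1+ libraries. Cx3cr1 itself was at 18.9 to 28.5 in CX3CR1- and 347 to 380.4 in CX3CR1+ libraries, the direction of the sort gate. Of 11 macrophage markers, 10 were lower and 1 was higher in CX3CR1- cells by the test below, and all 8 markers of conventional dendritic cells were higher. For example, Zbtb46, a transcription factor of these dendritic cells, was at 306 to 369 in CX3CR1- and 41.2 to 46.8 in CX3CR1+ libraries. In bulk samples, fewer cells of a type and less RNA per cell cannot be told apart.

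In CX3CR1- cells, 7 of the 10 members were lower than in CX3CR1+ cells and 1 was higher. The lower ones were both cyclooxygenases, the prostaglandin D synthase, the prostaglandin-inactivating dehydrogenase, 5-lipoxygenase, leukotriene C synthase and the receptor EP4, whereas the receptor EP2 was higher. Ptges and Alox5ap did not pass the test. A gene was called where its log2 fold change (log2FC, CX3CR1- minus CX3CR1+) reached 1 in either direction with an adjusted p up to 0.05 in limma, fitted on log2(value + 1) over all 17812 genes with a mean of at least 10 and adjusted by Benjamini-Hochberg. All 10 members were among those tested. By the same rule 20.4% of all tested genes were called, 8.15% as lower and 12.2% as higher in CX3CR1- cells. The median log2 fold change was -1.66 over the members and -0.0035 over all tested genes. For 8 members the ranges of the groups stood apart, against 40.0% of all tested genes. The members were chosen with earlier results of these data known, so these comparisons are descriptive only.

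**Figure D1:**
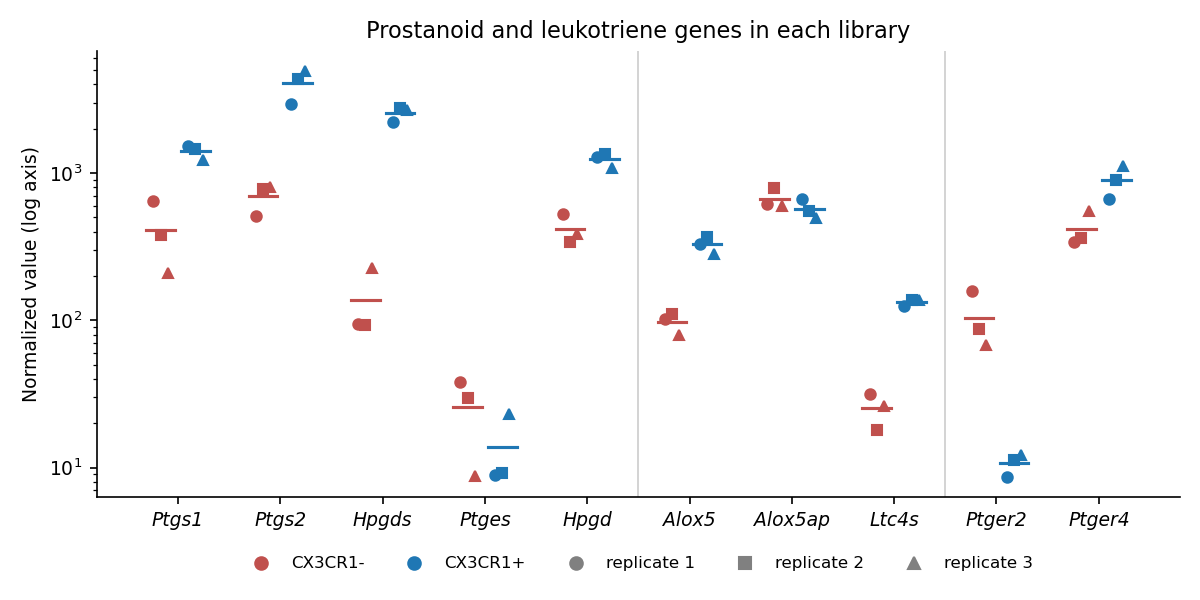
Normalized value (log axis) of each of the 10 genes in the 3 CX3CR1- (red) and 3 CX3CR1+ (blue) libraries, with a line at each group mean; enzymes of the prostanoid branch stand at the left, those of the leukotriene branch in the middle and the receptors at the right. The red points lie below all blue points for 7 genes and above them for Ptger2, while Ptges and Alox5ap overlap.

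The cyclooxygenases were both lower in CX3CR1- cells. Ptgs2, the inducible enzyme (chr1:150100031-150108227, plus strand, GRCm38), was at 508, 777 and 802 in CX3CR1- replicates 1, 2 and 3, and at 2967, 4344 and 4931 in CX3CR1+ replicates 1, 2 and 3. Each CX3CR1+ library held more than 3 times the highest CX3CR1- value. Mean levels of 696 ± 163 and 4081 ± 1008 (SD, n = 3 each) gave a 5.87-fold difference in favour of CX3CR1+ cells, with a log2FC of -2.55 (SE 0.24, adjusted p = 4.37e-05 in limma). Ptgs1, the constitutive enzyme (chr2:36230426-36252272, plus strand), was at 646, 382 and 211 in CX3CR1- replicates, against 1533, 1463 and 1219 in CX3CR1+ replicates. The CX3CR1- libraries were spread over a wider range than the CX3CR1+ libraries, and the groups did not overlap. Ptgs1 differed 3.40-fold between the means of 413 ± 219 (SD, n = 3) and 1405 ± 165 (SD, n = 3), with a log2FC of -1.90 (SE 0.34, adjusted p = 0.00244 in limma). None of the 31-mers of the Ptgs2 transcripts and 3.26% of those of Ptgs1 occur in another gene of the annotation.

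The 250 bases before the RefSeq start are shown for the cyclooxygenase genes, since both were lower together, and for Ptger2, the member that went the other way. Each window is given 5′ to 3′ on the gene's strand from RefSeq (GRCm38.p6), with capitals at matches to the motifs searched. The windows are chr2:36230176-36230425 for Ptgs1, chr1:150099781-150100030 for Ptgs2 and chr14:44987861-44988110 for Ptger2, all on the plus strand.
Ptgs1: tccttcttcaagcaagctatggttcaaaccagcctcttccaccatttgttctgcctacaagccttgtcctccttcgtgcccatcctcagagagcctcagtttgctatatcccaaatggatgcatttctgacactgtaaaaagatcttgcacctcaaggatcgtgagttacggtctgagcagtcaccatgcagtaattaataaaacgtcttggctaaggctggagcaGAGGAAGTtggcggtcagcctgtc
Ptgs2: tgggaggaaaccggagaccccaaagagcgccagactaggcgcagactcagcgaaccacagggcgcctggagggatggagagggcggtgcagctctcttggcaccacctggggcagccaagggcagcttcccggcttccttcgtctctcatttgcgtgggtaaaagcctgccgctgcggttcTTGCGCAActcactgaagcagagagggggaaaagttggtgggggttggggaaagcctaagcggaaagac
Ptger2: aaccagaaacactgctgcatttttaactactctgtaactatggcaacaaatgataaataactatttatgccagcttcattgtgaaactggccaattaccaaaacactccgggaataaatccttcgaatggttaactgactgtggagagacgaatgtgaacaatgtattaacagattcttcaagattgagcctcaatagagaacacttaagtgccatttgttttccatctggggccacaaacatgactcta
The Ptgs1 window holds a PU.1 site 24 bases before the start, and the Ptgs2 window holds a C/EBP site 69 bases before the start. PU.1 and C/EBP factors are transcription factors of the myeloid lineage. For Hpgds, a stretch of 30 bases around its PU.1 site (chr6:65144761-65144790, minus strand) is shown because it carries the same letters as that of Ptgs1. In the GENCODE annotation Hpgds starts further upstream, at position 65144908, so this site lies inside the annotated gene. The window searched for Hpgds thus covers part of the gene itself. The same holds for the window of Ltc4s, and that of Ptges lies wholly inside its annotated gene.
Hpgds: gcttttaggtgGAGGAAGTggcctctggct
The motifs were searched on both strands in the same 250 bases before the start of 9 members (Alox5ap was not among them) and of all 32851 RefSeq entries. GAGGAAGT (PU.1) was found in Ptgs1 and Hpgds and in 2.44% of all windows, and TTGCNNAA (C/EBP) in Ptgs2 and Hpgds and in 9.56% of all windows. The other 5 motifs, TGACGTCA (cAMP response element, in 1.55% of all windows), TGANTCA (AP-1, 6.75%), CACGTG (E-box, 6.02%), the NF-kB site (1.21%) and TATAAA (a core promoter box, 12.37%), were in none of the members' windows. The motifs were chosen after the values were seen, and a match describes these letters only.

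Of the terminal prostaglandin synthases, Hpgds had the largest difference of all members, whereas Ptges was low in both populations. Hpgds, which makes prostaglandin D in hematopoietic cells (chr6:65117293-65144908, minus strand), was at 94.2, 93.3 and 226 in CX3CR1- replicates 1, 2 and 3, against 2211, 2775 and 2666 in CX3CR1+ replicates. All CX3CR1+ libraries lay far above the CX3CR1- libraries, of which replicate 3 was the highest. The means of 138 ± 76.3 (SD, n = 3) and 2551 ± 299.5 (SD, n = 3) stood 18.5-fold apart, a log2FC of -4.32 (SE 0.32, adjusted p = 1.16e-05 in limma). Ptges, the inducible microsomal prostaglandin E synthase (chr2:30889471-30929863, minus strand), was at 38.3, 29.8 and 8.74 in CX3CR1- replicates, against 8.84, 9.15 and 23.3 in CX3CR1+ replicates. These values correspond to about 8.76 to 36.7 reads per library, and the groups overlapped. The log2 fold change of Ptges was 0.76 with a 95% interval from -0.69 to 2.21 (adjusted p = 0.447 in limma), which covers a difference of more than 4-fold upward as well as none. Without CX3CR1- replicate 3 its log2 fold change was 1.37, with an adjusted p of 0.118.

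Hpgd, whose 15-hydroxyprostaglandin dehydrogenase starts the inactivation of prostaglandins (chr8:56294585-56321043, plus strand), was lower in CX3CR1- cells, as Hpgds was. Its values were 528, 342 and 387 in CX3CR1- replicates, against 1277, 1353 and 1085 in CX3CR1+ replicates, with no overlap. The means were 419 ± 97.3 (SD, n = 3) and 1238 ± 138 (SD, n = 3), a 2.96-fold difference (log2FC -1.58, SE 0.21, adjusted p = 3.55e-04 in limma).

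In the leukotriene branch, Alox5 and Ltc4s were lower in CX3CR1- cells, while the transcript of the activating protein FLAP was at a similar level in both populations. Alox5 (chr6:116410077-116461178, minus strand) was at 103, 111 and 79.7 in CX3CR1- replicates, against 330.0, 371 and 281 in CX3CR1+ replicates. The groups stood apart at means of 97.7 ± 16.1 (SD, n = 3) and 327 ± 44.7 (SD, n = 3), a 3.35-fold difference (log2FC -1.74, SE 0.24, adjusted p = 4.95e-04 in limma). Ltc4s (chr11:50236461-50238616, minus strand) was at 31.5, 18.1 and 26.2 in CX3CR1- replicates, against 125, 137 and 138 in CX3CR1+ replicates. The CX3CR1+ libraries were close to each other and all above the CX3CR1- libraries, 5.28-fold by the means of 133 ± 7.16 and 25.3 ± 6.75 (SD, n = 3 each), with a log2FC of -2.39 (SE 0.32, adjusted p = 4.04e-04 in limma). Of the 31-mers of Ltc4s, 19.5% also occur in the antisense gene Gm26542, and without strand information reads of this shared part cannot be told apart. Alox5ap (chr5:149264767-149288153, plus strand) was at 617, 791 and 594 in CX3CR1- replicates, against 668, 553 and 497 in CX3CR1+ replicates. Its groups overlapped, and the log2 fold change was 0.22 with a 95% interval from -0.22 to 0.66 (adjusted p = 0.472 in limma). This interval leaves out a 2-fold difference in either direction. Alox5ap shares 9.45% of its 31-mers with the antisense gene Gm19719.

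The prostaglandin E receptors went in opposite directions. Ptger2, encoding EP2 (chr14:44988195-45003820, plus strand), was at 157, 86.9 and 67.8 in CX3CR1- replicates, against 8.69, 11.2 and 12.1 in CX3CR1+ replicates. Even the lowest CX3CR1- library lay more than 5 times above the highest CX3CR1+ library, although the CX3CR1+ values rest on only about 8.54 to 18.8 reads. The means of 104 ± 47.0 (SD, n = 3) and 10.7 ± 1.77 (SD, n = 3) gave a 9.74-fold higher level in CX3CR1- cells, with a log2FC of 3.09 (SE 0.42, adjusted p = 4.42e-04 in limma). Ptger4, encoding EP4 (chr15:5206661-5244187, minus strand), was at 343, 360.2 and 552 in CX3CR1- replicates, against 667, 902 and 1125 in CX3CR1+ replicates. The groups did not overlap, but the gap between them was small beside the spread within them. EP4 transcripts were at 418 ± 116 (SD, n = 3) and 898 ± 229 (SD, n = 3), a log2FC of -1.10 (SE 0.25, adjusted p = 0.00998 in limma). Of its 31-mers, 14.4% also occur in the pseudogene Gm15937. Ptger4 was the member whose call depended on the settings. It had an absolute log2 fold change under 1 without CX3CR1- replicate 1 (-0.97, adjusted p = 0.0394) and without CX3CR1+ replicate 3 (-0.92, adjusted p = 0.0547), and likewise under 3 of the 4 other scalings between libraries.

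**Figure D2:**
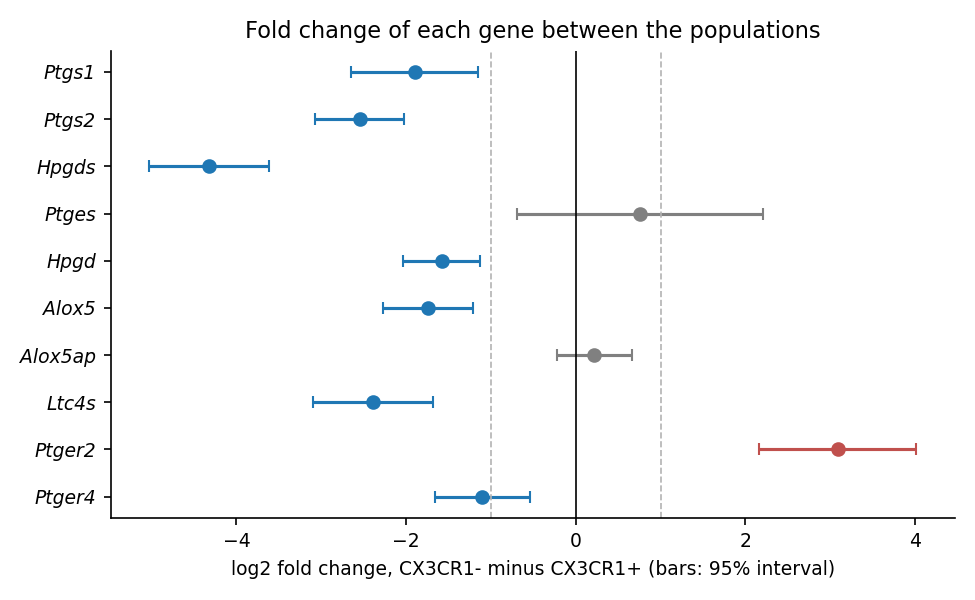
Log2 fold change of the 10 genes (CX3CR1- minus CX3CR1+) with its 95% interval from limma; blue marks genes called lower, red called higher and grey not called, and dashed lines mark the fold threshold. Hpgds at -4.32 and Ptger2 at 3.09 stand at the ends, and only the intervals of Ptges and Alox5ap cross 0.

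For single genes, an exact two-sided permutation test over the 6 libraries gave p = 0.1 for each of the 8 called members, the smallest that 3 libraries against 3 allow, and p = 0.4 for Ptges and Alox5ap. When any single library was omitted, the other 7 called members kept their call in all 6 fits. Hpgds stayed between -4.74 and -4.11 on the log2 scale, Ptgs2 between -2.76 and -2.34, and Ptger2 between 2.75 and 3.35. Among the called members Ptgs1 moved most, between -2.30 without CX3CR1- replicate 1 and -1.49 without CX3CR1- replicate 3.

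The levels of the 10 members were compared with each other per length, as the normalized value per kb of the longest protein-coding transcript. In CX3CR1+ cells, Ptgs2 was the highest of the 10 at 916 ± 226 per kb (SD, n = 3), followed by Hpgd at 736 ± 82.0 and Hpgds at 734 ± 86.2, and these 3 ranges overlapped from neighbour to neighbour. Ptgs1 at 490.1 ± 57.5 per kb lay below all of them and overlapped with Alox5ap at 458 ± 70.0. Ptger4 (271 ± 69.1), Ltc4s (186 ± 9.99) and Alox5 (116 ± 15.9) followed, each apart from the next. Ptges (3.77 ± 2.26) and Ptger2 (2.90 ± 0.48) were lowest, and their ranges overlapped. In CX3CR1- cells the order was another. Alox5ap was highest at 533 ± 86.4 per kb, apart from Hpgd at 249 ± 57.8, which in turn lay above Ptgs2 (156 ± 36.6). Ptgs1 (144 ± 76.4) and Ptger4 (126 ± 35.1) overlapped with the neighbour above them. Hpgds (39.7 ± 22.0), Ltc4s (35.3 ± 9.43), Alox5 (34.6 ± 5.70) and Ptger2 (28.2 ± 12.8) followed, each overlapping with the next, but apart from Ptger4 above and from Ptges below, which was last at 7.02 ± 4.17. Hpgds thus stood among the 3 highest members in CX3CR1+ cells and in place 6 in CX3CR1- cells.

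**Figure D3:**
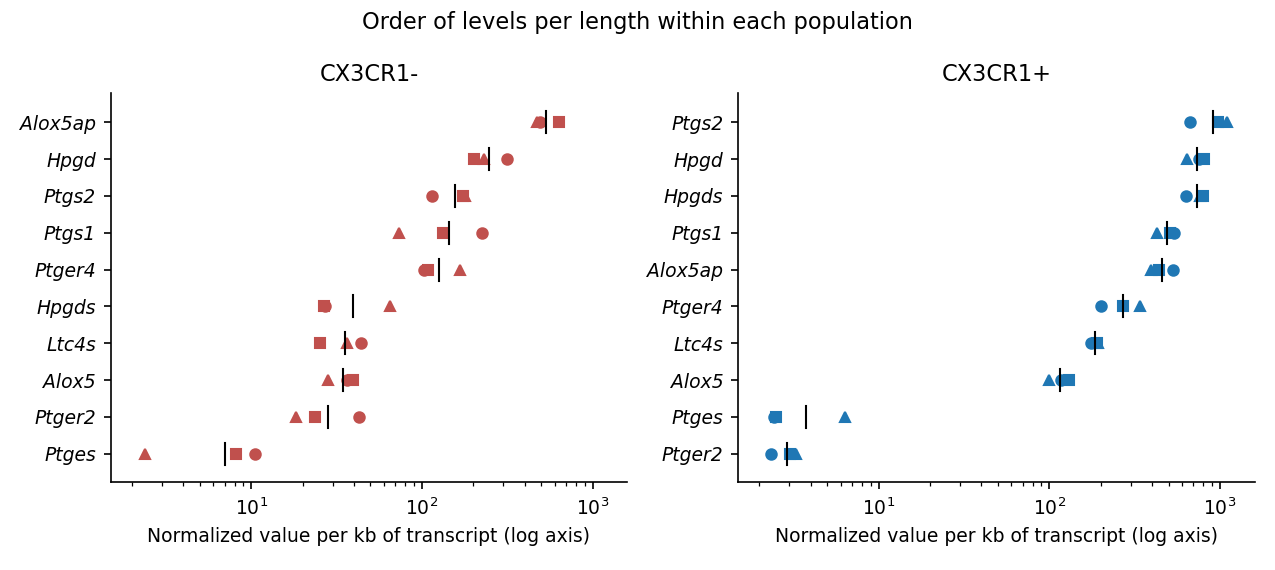
Normalized value per kb of transcript (log axis) of the 10 genes in the CX3CR1- (left) and CX3CR1+ (right) libraries, ordered by the group mean, which the black tick marks. Alox5ap leads in CX3CR1- cells, and Ptgs2, Hpgd and Hpgds lead in CX3CR1+ cells.

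Ratios within a library do not depend on the scaling between libraries, and 3 were compared, each per length. The ratio of Ptgs1 to Ptgs2 was 1.97, 0.763 and 0.409 in CX3CR1- and 0.803, 0.523 and 0.384 in CX3CR1+ replicates 1, 2 and 3. These ranges overlapped, so that a different balance of the cyclooxygenases was not shown (difference in log2 ratio 0.65, exact two-sided permutation test, p = 0.5). The ratio of Hpgds to Ptges was 2.58, 3.28 and 27.1 in CX3CR1- and 262, 318 and 120.2 in CX3CR1+ libraries. Hpgds transcripts exceeded those of Ptges in all 6 libraries, by far more in the CX3CR1+ libraries. The difference in log2 ratio was -5.08. Other prostaglandin E synthases, named here after their values were seen, were not part of this ratio. Not per length, Ptges3 was at 399 ± 24.5 in CX3CR1- and 499 ± 92.5 in CX3CR1+ cells (mean ± SD, n = 3 each), beside 138 ± 76.3 and 2551 ± 299.5 for Hpgds. Ptges2 was at 33.1 ± 22.3 and 18.2 ± 7.91, and neither of them was called. The ratio of Ptger4 to Ptger2 was 2.43, 4.61 and 9.06 in CX3CR1- and 85.4, 89.4 and 103 in CX3CR1+ libraries, so that EP4 was the more abundant receptor transcript throughout. Here the difference was -4.19 on the log2 scale. For both ratios the groups did not overlap, with p = 0.1 in the exact permutation test, the smallest possible, and 0.15 after adjustment over the 3 ratios.

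**Figure D4:**
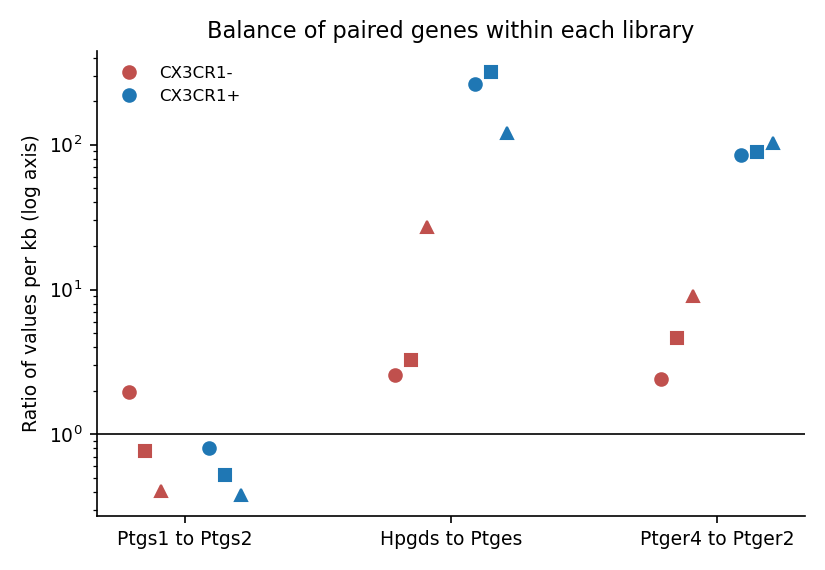
Ratio of the values per kb of 3 gene pairs (log axis) within each CX3CR1- (red) and CX3CR1+ (blue) library, with replicates 1, 2 and 3 as circle, square and triangle and a line at a ratio of 1. The groups overlap for Ptgs1 to Ptgs2 and stand apart for Hpgds to Ptges and Ptger4 to Ptger2.

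The other genes of the pathway did not share the direction of the members. Of 60 genes in 6 lists, 52 were in the table and 42 were tested. In CX3CR1- cells 15 of them were called higher and 2 lower, against the 12.2% and 8.15% of all tested genes given above, and 25 were not called. Their median log2 fold change was 0.68. For each list the gene with the highest mean value is also given, a choice made on values that are not per length.

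Among 9 tested genes of arachidonate release, 1 was higher and 2 were lower. Pla2g15, the lysosomal phospholipase A2, was at 55.6 ± 9.35 in CX3CR1- and 382 ± 78.5 in CX3CR1+ cells (mean ± SD, n = 3 each) (log2FC -2.75, adjusted p = 4.77e-05 in limma). Daglb, a diacylglycerol lipase and the gene of this list with the highest mean value over all libraries, had a log2FC of -1.13 (adjusted p = 0.0238), which was no longer called without any one of 4 libraries (CX3CR1- replicates 1 and 3, CX3CR1+ replicates 2 and 3). Pla2g2d, a secreted phospholipase A2, had one of 1.08 (adjusted p = 0.0384) and was called only without CX3CR1- replicate 1 among the 6 fits that leave out a library. Pla2g4a, the cytosolic phospholipase A2 that supplies both branches and is named here after its values were seen, was at 93.8 ± 47.0 (SD, n = 3) and 135 ± 32.4 (SD, n = 3) and was not called (log2FC -0.60, adjusted p = 0.280).

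Of 7 other prostanoid synthases, 2 were higher and none was lower. Ptgis, the prostacyclin synthase, was at 38.5, 32.1 and 93.5 in CX3CR1- replicates, against 3.38, 3.85 and 12.1 in CX3CR1+ replicates (log2FC 2.93, adjusted p = 0.00618 in limma). Cbr1, a carbonyl reductase that acts on prostaglandin E among other substrates, had a log2FC of 1.37 (adjusted p = 0.0117). Tbxas1, the thromboxane synthase, had the highest mean value of this list and was at 819 ± 120.2 in CX3CR1- and 1325 ± 59.0 in CX3CR1+ cells (mean ± SD, n = 3 each). The groups did not overlap for Tbxas1, but at -0.70 it stayed under the fold threshold (adjusted p = 0.0125).

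Among 10 tested genes of leukotriene metabolism and other lipoxygenases, 5 were higher in CX3CR1- cells and none was lower. Lta4h, which forms leukotriene B and had the highest mean value of this list, was at 320.4, 166 and 166 in CX3CR1- replicates, against 95.9, 93.1 and 117 in CX3CR1+ replicates (log2FC 1.02, adjusted p = 0.0327 in limma). Its call was lost without CX3CR1- replicate 1 (log2FC 0.71) and without CX3CR1+ replicate 1 (0.98), 2 (0.96) or 3 (1.12), with adjusted p between 0.0652 and 0.112. Dpep2, a dipeptidase that turns leukotriene D into leukotriene E, was 5.86-fold higher at 164 ± 34.4 (SD, n = 3) against 28.0 ± 9.23 (SD, n = 3), with a log2FC of 2.54 (adjusted p = 3.71e-04 in limma). Dpep1, a related dipeptidase, was at least 29.7-fold higher, since all CX3CR1+ libraries held at most 3 reads of it, and Ggt1, the gamma-glutamyltransferase that forms leukotriene D, was at least 21.9-fold higher for the same reason. Mgst3, a microsomal glutathione transferase, had a log2FC of 2.13 (adjusted p = 0.00976). Both bounds were computed against the mean of the 3-read levels of the CX3CR1+ libraries.

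Among 9 genes of transport and inactivation, 4 were higher in CX3CR1- cells and none was lower. Slco2a1, the prostaglandin uptake transporter, was at 96.2, 266 and 105 in CX3CR1- replicates, against 36.2, 39.6 and 35.8 in CX3CR1+ replicates (log2FC 1.87, adjusted p = 0.00637 in limma), and Ptgr1, a prostaglandin reductase, had a log2FC of 1.26 (adjusted p = 0.0115). Ephx2, the soluble epoxide hydrolase, was at 268, 164 and 98.5 in CX3CR1- replicates, against 4.68, 1.66 and 2.87 in CX3CR1+ replicates, of which replicates 2 and 3 lay under their value of 3 reads, so no fold is given. Cyp4f14, a fatty acid hydroxylase, was at least 42.5-fold higher, with all CX3CR1+ libraries at 3 reads or fewer. Cbr1 and Ptgr1 each lost their call without 1 library, Cbr1 without CX3CR1+ replicate 1 (adjusted p = 0.0517 in limma) and Ptgr1 without CX3CR1+ replicate 3 (adjusted p = 0.0522). Abcc1, which exports leukotriene C and had the highest mean value of the list, was not called, at 281 ± 66.4 (SD, n = 3) and 212 ± 25.3 (SD, n = 3). Thus the transcripts of Slco2a1 and Hpgd, the uptake and the oxidation step of prostaglandin clearance, differed in opposite directions. Whether the same cells hold both transcripts was not tested.

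Among receptors outside the members, 3 of 7 tested genes were higher in CX3CR1- cells and none was lower. Ptgir, the prostacyclin receptor, was at 92.1, 72.1 and 66.6 in CX3CR1- replicates, against 4.65, 4.58 and 3.89 in CX3CR1+ replicates (log2FC 3.85, adjusted p = 1.34e-04 in limma). Ltb4r1, the high-affinity leukotriene B receptor, was at 47.0, 122 and 21.9 in CX3CR1- replicates, against 2.78, 4.10 and 1.42 in CX3CR1+ replicates (log2FC 3.83, adjusted p = 0.00272). Ptger1, encoding the prostaglandin E receptor EP1, had the highest mean value of the other prostanoid receptors over all 6 libraries, though not in CX3CR1- cells alone, and was not called, at 50.1 ± 31.3 (SD, n = 3) and 44.7 ± 13.6 (SD, n = 3). The low-affinity receptor Ltb4r2 had a log2FC of 2.12 (adjusted p = 0.0262). With a library left out, Ltb4r2 was called only without CX3CR1- replicate 3, and its adjusted p was 0.0523 to 0.0807 in the other 5 fits. In CX3CR1+ replicate 3, Ptgir, Ltb4r1 and Ltb4r2 (3.61) all lay under the value of 3 reads (4.25), so their fold changes are approximate. Cysltr1, a receptor for cysteinyl leukotrienes with the highest mean value among the leukotriene receptors, was at 274 ± 57.5 in CX3CR1- and 410 ± 38.2 in CX3CR1+ cells (mean ± SD, n = 3 each) and was not called (log2FC -0.59, adjusted p = 0.0722). Of the prostaglandin D receptors, Ptgdr was at 0.820 to 5.67 over all 6 libraries, and Ptgdr2 was listed at 0 in all 3 CX3CR1- libraries, against 2.31, 15.6 and 0 in CX3CR1+ replicates. Neither passed the filter, and both were named after their values were seen.

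**Figure D5:**
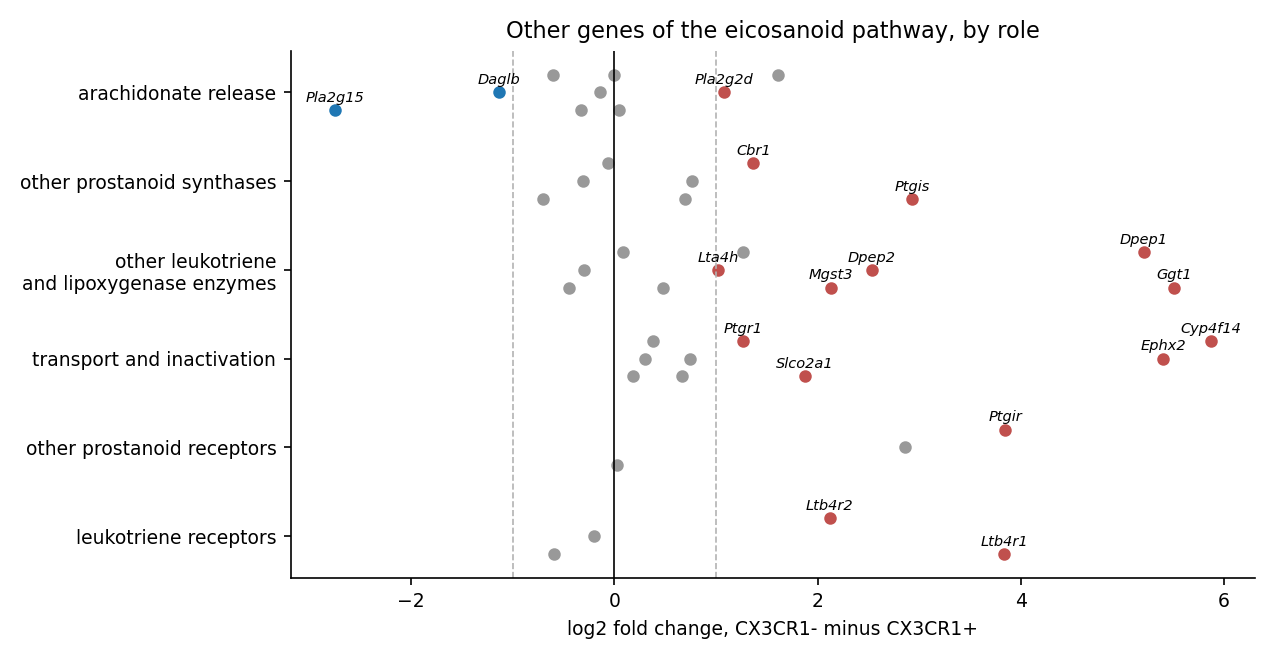
Log2 fold change (CX3CR1- minus CX3CR1+) of the 42 tested pathway genes outside the members, 1 point per gene in 6 rows by role; red marks genes called higher, blue called lower and grey not called, and dashed lines mark the fold threshold. Of the 17 called genes, 15 lie at the right, and only Pla2g15 and Daglb are called at the left.

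Markers of other cells that use these genes moved between the populations as well. The summed level of 10 enterocyte and epithelial markers was 17987 to 32726 in CX3CR1- and 20.3 to 43.5 in CX3CR1+ libraries, with all 10 called higher. That of 7 fibroblast markers was 4139 to 12199 and 182 to 319, with all 7 called higher. That of 6 endothelial markers was 761 to 960.3 and 432 to 663, with 3 called higher and 1 lower. The part of these cells in the higher values of Ephx2, Cyp4f14, Dpep1, Ggt1, Ptgis, Ptgir, Slco2a1 and Ptger2 was not tested. Tuft cells hold much of Hpgds, Ptgs1, Alox5 and Ltc4s in the gut epithelium. Of 10 tuft markers 9 were in the table, with a sum of 208 to 369 in CX3CR1- and 25.2 to 59.9 in CX3CR1+ libraries. All 9 had the higher mean in CX3CR1- cells, and 2 were at 0 in all CX3CR1+ libraries. Only 4 were tested, of which Dclk1 and Gfi1b were called higher. Dclk1 alone was at 65.4 to 184 in CX3CR1- and 9.84 to 14.7 in CX3CR1+ libraries. The sum went opposite to Hpgds, Ptgs1, Alox5 and Ltc4s, and the part of tuft cells in these genes was not tested. Of 13 mast cell and basophil markers, 4 were in the table and the others were not analysed here. Their sum was 302 to 564 in CX3CR1- and 35.2 to 50.7 in CX3CR1+ libraries. Kit had by far the highest mean of the 4, 349 in CX3CR1- and 31.4 in CX3CR1+ cells. Only 2 of the 4 were tested, of which Kit was called higher and Hdc (means of 58.4 and 9.50) was not called. Ms4a2, encoding a chain of the IgE receptor, was at a mean of 4.31 and 3.85. The 5 eosinophil markers with values summed to 99.0 to 122 in CX3CR1- and 13.9 to 20.6 in CX3CR1+ libraries. The 2 of them that were tested, Siglecf and Il5ra, were called higher. The 3 neutrophil markers with values summed to 82.9 to 117 in CX3CR1- and 733 to 1141 in CX3CR1+ libraries. Csf3r, called lower at means of 50.4 and 821, made up most of the CX3CR1+ sum, and Cxcr2 was not called. Platelet markers, of which 4 of 5 were in the table, summed to 263 to 502 in CX3CR1- and 1813 to 2369 in CX3CR1+ libraries. Pf4, with means of 375 in CX3CR1- and 2137 in CX3CR1+ cells, made up most of both sums. Pf4 and Ppbp were called lower, in the direction of Ptgs1 and Tbxas1, which platelets express. Itga2b (means of 11.5 in CX3CR1- and 6.19 in CX3CR1+ cells) and Gp9 (2.98 and 1.41) went the other way but were not tested. Monocyte markers summed to 7499.8 to 18776 in CX3CR1- and 948 to 1045 in CX3CR1+ libraries, with 4 of 5 called higher. Fn1, with means of 10503 in CX3CR1- and 218 in CX3CR1+ cells, made up most of the CX3CR1- sum. Ly6c2 was not called, at means of 94.5 in CX3CR1- and 10.5 in CX3CR1+ cells, and its groups overlapped. The part of these cells in the members' values was not tested. The 11 macrophage markers summed to 10973 to 12620.0 in CX3CR1- and 51751 to 57409 in CX3CR1+ libraries, in the direction of the 7 lower members, and their part in those members was not tested. Ptprc, encoding the leukocyte antigen CD45, was at 2860.5 to 4526 and at 3897 to 4579. When all values were rescaled to equal Ptprc, a setting chosen after the data were seen, Hpgds, Ptgs2, Ltc4s, Ptgs1, Alox5 and Hpgd were still called lower and Ptger2 higher.

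The genes whose profile over the 6 libraries was nearest to that of the 3 members with the largest fold changes were named by a fixed rule, the root mean square difference of centred log2 values among 17802 other genes. They were Ccl4 (0.28), a chemokine, and Zmynd15 (0.29) for Hpgds. For Ptgs2 they were Gm26780 (0.09), a long noncoding RNA, and Ccrl2 (0.15), an atypical chemokine receptor. Papss2 (0.17), a sulfate-activating enzyme, and Pglyrp1 (0.22), a peptidoglycan recognition protein, were nearest to Ptger2. The measure includes the difference between the groups as well as the spread within them.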

How the data were processed

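Per the labels and the study's methods, libraries were made with the TruSeq RNA kit v2, which does not mark strand, and the authors pseudoaligned the reads to the mouse transcriptome (mm10, GENCODE vM16) with Kallisto and summed the estimates per gene. The deposited values are a signal normalized between libraries with DESeq2 by the authors, so they are neither whole counts nor per length. Between 47.5 and 49.5% of values above 0 were whole multiples (tolerance 0.05) of the smallest step, so no count test was run, and the depths derived from that step are approximate.

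The members and all lists were chosen with earlier results of these data known. The 17812 of 26110 genes whose mean reached 10 were fitted on log2(value + 1) with limma 3.58.1 in R 4.3.3 (intensity trend, group as the only term), with Benjamini-Hochberg adjustment. A fold change on this scale understates the change of low genes. The script was tested on simulated data. Named were all members, the called genes of each pathway list (up to 4 per direction) and its most abundant gene, and the genes nearest in profile. Exceptions are marked. Gene positions and shared 31-mers came from GENCODE M21 (GRCm38), a later release than that of the authors. Alternatives were other pseudocounts, filters, scalings, variance priors, weights, thresholds, a block, and leaving out each library. Rescaling to equal Ptprc was chosen after seeing the data.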

Additional observations from a re-analysis of the deposited data

How the results depend on the processing

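Under 18 alternatives, 1 member was higher and 6 to 7 were lower in CX3CR1- cells, and no fold change of a member reversed. Ptger4 was the member that lost its call, under quantile normalization (-0.87, adjusted p = 0.0447 in limma), the total without mitochondrial genes (-0.93, 0.0324), equal Ptprc (-0.90, 0.0988) and no intensity trend (-1.10, 0.0547), and without CX3CR1- replicate 1 or CX3CR1+ replicate 3. Those 3 scalings shifted the median over all genes on the log2 scale to -0.15, 0.17 and 0.20. Of all calls, 60.0% were higher in CX3CR1- cells, against 50.6%, 69.4% and 71.3% under these scalings. Median-of-ratios rescaling changed almost nothing because its factor was the same for every library. With a mean of at least 50, 8 rather than 15 pathway genes were higher, since fewer genes were tested, and 2413 rather than 3628 genes were called in all. A pseudocount of 10 gave 13 and quantile normalization 12 higher pathway genes, with Lta4h lost under both (0.96 and 0.93) and Ltb4r2 under the latter (1.55, adjusted p = 0.0969). Leaving out a library gave 11 to 15 higher and 1 to 2 lower pathway genes. The total without mitochondrial genes, equal Ptprc and no intensity trend each left 1 lower, Pla2g15, with Daglb lost. The balance of Ptger4 to Ptger2 was -3.47 with a pseudocount of 10, and -4.67 to -3.72 with a library left out. That of Hpgds to Ptges was -6.12, without CX3CR1- replicate 3, to -4.49, and that of Ptgs1 to Ptgs2 was 0.04 to 1.17. The titles carry library numbers that no label calls a pairing. A block for adjacent numbers gave 1 higher and 7 lower members, as without it, and libraries of a block shared little deviation from their group means (correlations across genes 0.10, 0.04 and 0.01). Among the members, low read numbers limit Ptges and the CX3CR1+ values of Ptger2.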
